A study of Macaca mulatta with 12 samples.

Results

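The mitochondrial ribosomal proteins are the proteins of the ribosome inside mitochondria, and their nuclear genes were picked out on the array by symbol, MRPL or MRPS followed by a number. A total of 97 probe sets had exactly 1 annotation symbol of this form, and they named 62 of the 14132 named genes of the array. Each gene was represented by its brightest probe set on average across all 12 arrays, a choice in which the 9 ES arrays weigh more than the 3 fibroblast arrays. For 1 gene, MRPL43, this mattered: the probe set chosen averaged 9.23 in fibroblasts and was −0.42 against the ES lines (limma adjusted p = 3.6e-04), whereas the other averaged 9.38 in fibroblasts and was at −0.08 (adjusted p = 0.23). Of the 62 genes, 38 had 1 probe set and 24 had several. A reference gene table held 77 genes with such names, and the other 15, among them MRPL3, MRPL13 and MRPS10, were not analysed here. By subunit, 42 members belong to the large and 20 to the small subunit, counting MRPS30 and MRPS18A with the large subunit, where their proteins sit despite their names.

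The mitochondrial ribosome, or mitoribosome, translates the messenger RNAs of mitochondrial DNA, which encode core subunits of the oxidative phosphorylation complexes. Its ribosomal RNAs come from mitochondrial DNA, whereas all of its proteins are made in the cytosol from nuclear genes and imported. Some of these proteins have a counterpart in the bacterial ribosome and others were gained by mitochondria. Embryonic stem (ES) cells are known for small, immature mitochondria and a strong use of glycolysis.

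Transcript levels came from 12 Affymetrix arrays of rhesus macaque cells, with 1 sample per array and 3 samples in each of 4 groups. The fibroblasts were male, grown from back skin of a 9-year-old adult, and serve as the somatic control. ORMES-9 and rPESC-2 are parthenogenetic ES lines, from eggs that developed without fertilisation and so with maternal genomes only; ORMES-9 is described as homozygous and rPESC-2 as heterozygous. ORMES-22 is the biparental ES line, derived from a blastocyst obtained by in vitro fertilisation. The source label of ORMES-9 names a fertilised embryo, against its description and the series design, and it was treated as parthenogenetic. All 3 ES lines are female, were grown on inactivated mouse embryonic fibroblast feeder cells, and gave RNA from picked undifferentiated colonies, taken in replicates A, B and C at passages 13, 14 and 16 of ORMES-9, passages 16, 10 and 16 of rPESC-2, and passages 18, 21 and 19 of ORMES-22. Each ES type is 1 line, so parental origin cannot be told apart from other properties of a line, and sex and culture differ between fibroblasts and ES lines. The fibroblast replicates may come from 1 animal, and p-values measure only the spread between replicate samples.

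The deposited values are log2 expression summaries per probe set, and 1 unit is a 2-fold difference. Medians of the 12 arrays lay between 5.012 and 5.098, and the number of arrays limits the precision. A background level of 4.257 was set at the 90th percentile of 42 probe sets for bacterial spike-in RNA, and all 62 members were above it on all 12 arrays. Of 10 pluripotency genes measured, 8 were lower in fibroblasts than in the ES lines, POU5F1 by 8.07 and SOX2 by 8.13, but the probe set of NANOG was 1.32 higher. Of 11 fibroblast and matrix genes 9 were higher in fibroblasts, whose mean level over the list was 11.11 to 11.15 per array. In the ES lines that mean was 7.78 to 8.05 in ORMES-9, 7.46 to 8.04 in rPESC-2 and 8.40 to 8.63 in ORMES-22. Of the 11 genes only 2, LUM and FAP, were at or under background in each of the 3 ES lines. Array A of ORMES-22 stood apart from arrays B and C. Between it and their mean, 495 of the 14132 genes (3.5%) differed at least 2-fold. Of the 62 members 0 did, the largest difference being 0.73 for MRPL58. The median of array A minus that mean was 0.09 over the members and −0.01 over all named genes.

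Against ES cells, more mitoribosomal protein genes were lower than higher in skin fibroblasts, in about the proportion of all named genes, and a few members were far higher. The difference was below 0 for 41 of 62 members (66.1%), against 64.3% of named genes. The family median of the 62 signals was 9.77 ± 0.06 in fibroblasts, 10.03 ± 0.05 in ORMES-9, 10.06 ± 0.06 in rPESC-2 and 10.06 ± 0.06 in ORMES-22 (log2, SD, n = 3 each). Against the mean of the 3 ES lines, 33 members were lower in fibroblasts and 16 higher at a limma adjusted p under 0.05, and 13 did not pass. This is 79% of the family, while 70.4% of all named genes and 60.3% of all probe sets passed in this comparison. The split by direction was close to that of all named genes too: 53.2% of members and 44.9% of genes were lower, 25.8% of members and 25.5% of genes higher. With quantile normalisation across arrays the split of members became 40 lower and 11 higher. Over all probe sets 29446 passed in either direction with that setting, against 31829 without it. The split of all named genes by direction was not computed for it.

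The sizes were modest. The median difference of the members was −0.25, the middle of the family ran from −0.46 to 0.24 (quartiles), and 39 of 62 lay within 0.5 of 0, while the median over all named genes was −0.15. A difference of at least 2-fold was reached by 10 members, 7 lower and 3 higher, or 16.1%, against 27.4% of named genes (14.5% lower and 12.9% higher). The fibroblast arrays lay wholly outside the range of the 9 ES arrays for 37 members (59.7%), against 57.5% of named genes. In RNA from bulk cultures, fewer cells of a type and less RNA per cell cannot be told apart.

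**Figure D1:**
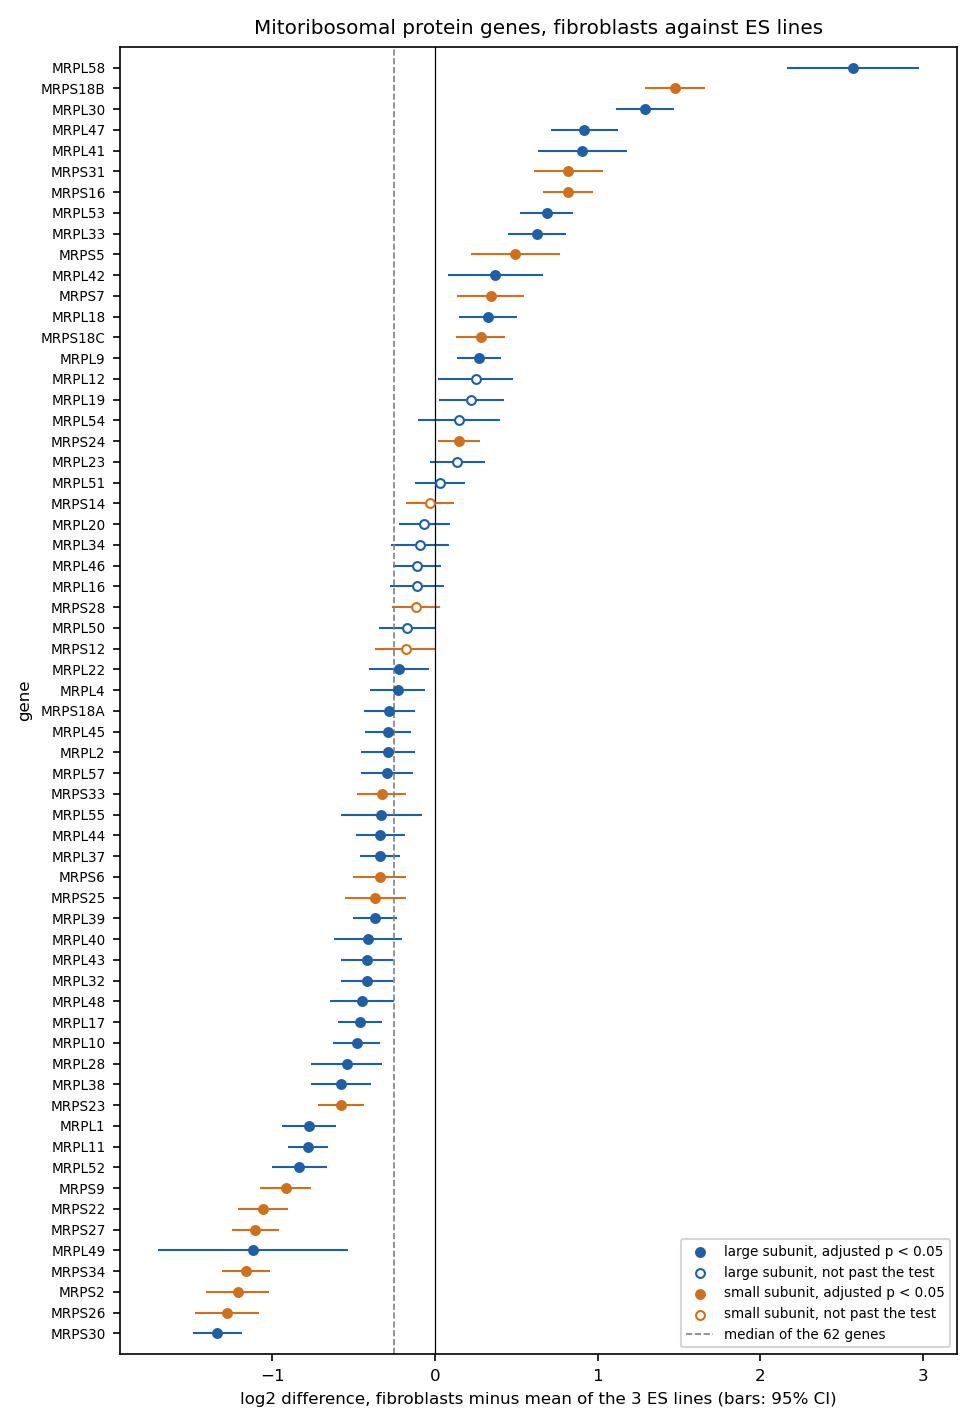
Log2 difference of each of the 62 mitoribosomal protein genes, fibroblasts minus the mean of the 3 ES lines, with bars for the 95% confidence interval. Filled points passed an adjusted p of 0.05, colours mark the subunit, and the dashed line is the family median of −0.25; MRPL58, MRPS18B and MRPL30 stand far to the right of the other members.

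Members that passed the test and lay at least 1 log2 unit from the family median are called members that break from the family. In fibroblasts 9 did so, 7 on the high side and 2 on the low side. The share of all named genes that meets such a rule was not computed. The rule counts from the family median of −0.25. Counted from 0, the members that differed at least 2-fold were 3 higher and 7 lower, or 16.1%, against 27.4% of named genes. The largest departure was MRPL58, a peptidyl-tRNA hydrolase built into the large subunit that releases stalled peptides. MRPL58 read 8.23, 7.98 and 7.87 in fibroblasts A, B and C, against 4.57 at the lowest, 5.52 at the median and 6.19 at the highest in the 9 ES arrays. Every fibroblast array was thus above every ES array, and the difference was 2.57 (5.95-fold, SE 0.19, adjusted p = 1.2e-07). The ES signals of MRPL58 lay near the background level, where differences on this scale are understated.

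MRPS18B, a small subunit protein related to bacterial S18, read 9.86, 9.77 and 9.79 in fibroblasts, against 8.07, 8.33 and 8.57 at the lowest, median and highest of the ES arrays. MRPL30, the counterpart of bacterial L30, read 9.27, 9.02 and 9.01 in fibroblasts, against 7.46, 7.85 and 8.07 in the ES arrays. Both were separated from the ES range on all 3 fibroblast arrays, MRPS18B by 1.48 (2.78-fold, SE 0.08, adjusted p = 1.4e-08) and MRPL30 by 1.29 (2.45-fold, SE 0.08, adjusted p = 3.8e-08). The other members that broke upward were under 2-fold: MRPL47, the counterpart of bacterial L29 (0.92), MRPL41, a large subunit protein gained by mitochondria (0.91), MRPS16, the counterpart of bacterial S16 (0.82), and MRPS31, a mitochondrial addition to the small subunit (0.82). Their adjusted p-values ran from 6.1e-07 for MRPS16 to 4.7e-05 for MRPL41, and none of the 4 overlapped between fibroblast and ES arrays.

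On the low side the break was reached by MRPS30 and MRPS26. MRPS30, a large subunit protein without a bacterial counterpart, read 9.31, 9.43 and 9.09 in fibroblasts, against 10.57, 10.61 and 10.71 at the lowest, median and highest of the ES arrays. Its SD of 0.04 over the 9 ES arrays was the smallest of the 62, and fibroblasts were lower by 1.34 on the log2 scale (difference −1.34, 2.53-fold, SE 0.07, adjusted p = 4.9e-09). MRPS26, a mitochondrial addition to the small subunit, read 10.33, 10.23 and 10.09 in fibroblasts, against 11.19, 11.56 and 11.69 in the ES arrays (difference −1.28, SE 0.09, adjusted p = 9.3e-08).

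A further 5 members were at least 2-fold lower in fibroblasts without reaching 1 unit from the family median. They were MRPS2, the counterpart of bacterial S2 (−1.21), MRPS34 (−1.16), MRPL49 (−1.12), MRPS27, a protein with pentatricopeptide repeats (−1.11), and MRPS22 (−1.06). MRPL49 was the least certain, at 6.26, 6.49 and 5.68 in fibroblasts against 6.65, 7.27 and 8.0 at the lowest, median and highest ES array (SE 0.27, adjusted p = 3.2e-03), where the highest fibroblast array lay just under the lowest ES array. The other 4 had adjusted p-values between 1.8e-08 for MRPS34 and 1.4e-07 for MRPS2, and also showed no overlap between fibroblast and ES arrays. Of the 7 members that were at least 2-fold lower, 5 were among the 20 of the small subunit and 2 among the 42 of the large. Over all named genes 14.5% were at least 2-fold lower. The second probe sets of MRPS22 and MRPS26 did not repeat the difference, and the split by subunit was not tested.

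**Figure D2:**
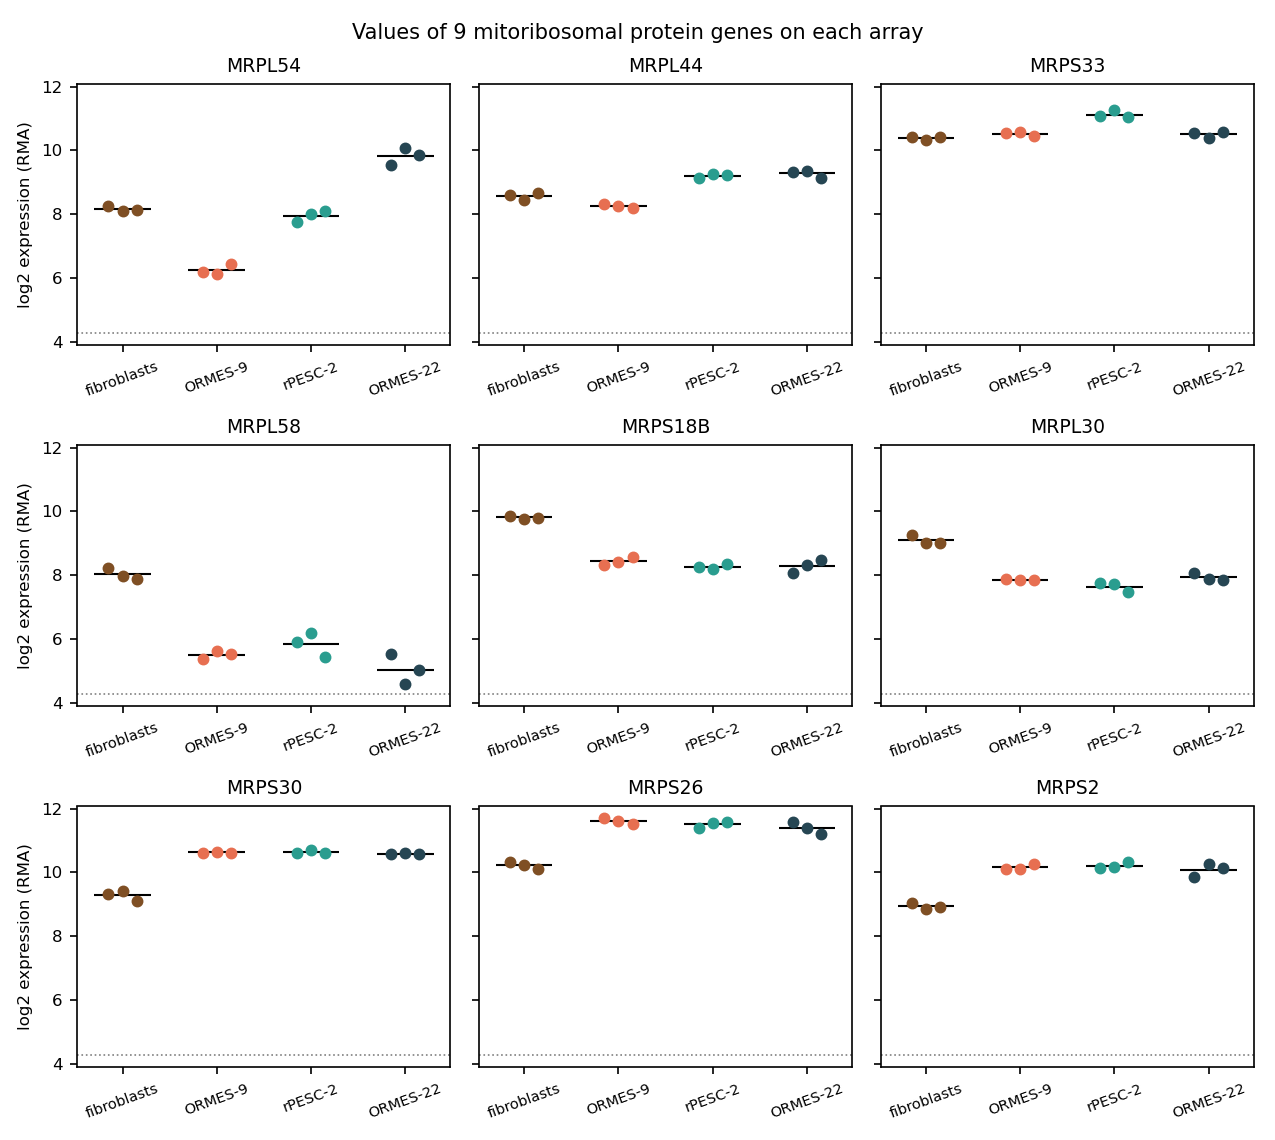
Log2 expression on each array for 9 mitoribosomal protein genes, 3 arrays per group, with the group mean as a bar and the background level of 4.257 as a dotted line. MRPL54 separates the 3 ES lines from each other, MRPL44 is low in ORMES-9, MRPS33 is high in rPESC-2, and the other 6 separate fibroblasts from every ES array.

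The 2 subunits had the same median difference of −0.25. In the large subunit 23 of 42 members were lower in fibroblasts and 9 higher, and in the small subunit 10 of 20 were lower and 7 higher. As shares these are 54.8% lower and 21.4% higher in the large and 50% and 35% in the small subunit, near the 44.9% and 25.5% of all named genes. Small subunit members spread more widely, with quartiles of −0.95 and 0.30, against −0.42 and 0.21 for the large subunit. By origin, 32 members have a counterpart in the bacterial ribosome, of which 13 were lower and 10 higher (median −0.10), and 30 have none, of which 20 were lower and 6 higher (median −0.34). That is 40.6% lower and 31.2% higher with a counterpart, and 66.7% and 20% without. MRPS18A and MRPS18B were counted with the 30, since MRPS18C was taken as the counterpart of S18. The 9 small subunit members without a counterpart had a median of −0.58, with 77.8% lower and 22.2% higher. MRPS22, MRPS23, MRPS25, MRPS26, MRPS27, MRPS33 and MRPS34 were lower, and MRPS18B and MRPS31 higher. Medians were −0.03 for small subunit members with a counterpart, and −0.11 with and −0.29 without one in the large subunit. These are counts and medians over members, and the differences between the groups of members were not tested.

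The brightest probe sets in the family, MRPL37, MRPS26 and MRPS22, averaged 11.27, 11.18 and 11.14 over the 12 arrays, and the dimmest, MRPL49, MRPL58 and MRPS6, averaged 6.98, 6.10 and 4.69. Probe sets differ in how they bind, so these signals do not rank the transcripts. MRPL37 was 0.34 lower in fibroblasts (adjusted p = 2.3e-04). MRPS6, the counterpart of bacterial S6, was also 0.34 lower (adjusted p = 1.6e-03), with 1 of its 3 fibroblast arrays inside the ES range of 4.58 to 4.98 and all arrays close to background.

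A second probe set did not always follow the first. Among the 18 members that passed in fibroblasts and had another probe set above background, 24 such probe sets were available; 17 had the same sign, 8 passed in the same direction and 3 passed in the opposite one. The direction was repeated with an adjusted p under 0.05 for MRPS30 (−1.01), MRPL30 (0.83) and MRPL47 (0.79). It was not repeated for MRPS18B, MRPS26 and MRPS16, whose other probe sets differed by 0.03, −0.16 and −0.01 (adjusted p = 0.77, 0.20 and 0.95). For MRPS22 the other, much dimmer probe set was 0.82 higher in fibroblasts (adjusted p = 1.6e-06) where the chosen one was lower, and the mean of both probe sets did not pass (−0.12, adjusted p = 0.067). MRPL58, MRPS2, MRPS34, MRPL49, MRPS27, MRPL41 and MRPS31 had 1 probe set each.

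MRPS14, the counterpart of bacterial S14, was singled out after its values were seen. Its chosen probe set read 10.34, 10.30 and 10.24 in fibroblasts and 10.16 to 10.58 in the ES arrays, a difference of −0.03 that did not pass (adjusted p = 0.72). Its second probe set read 5.94, 5.62 and 6.01 in fibroblasts, against 9.30 at the lowest and 10.07 at the highest ES array, a difference of −3.74 (SE 0.12, adjusted p = 4.3e-11). The 2 probe sets thus gave no difference that passed and the family's largest difference for the same gene symbol, and which of them follows the transcript was not tested.

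**Figure D3:**
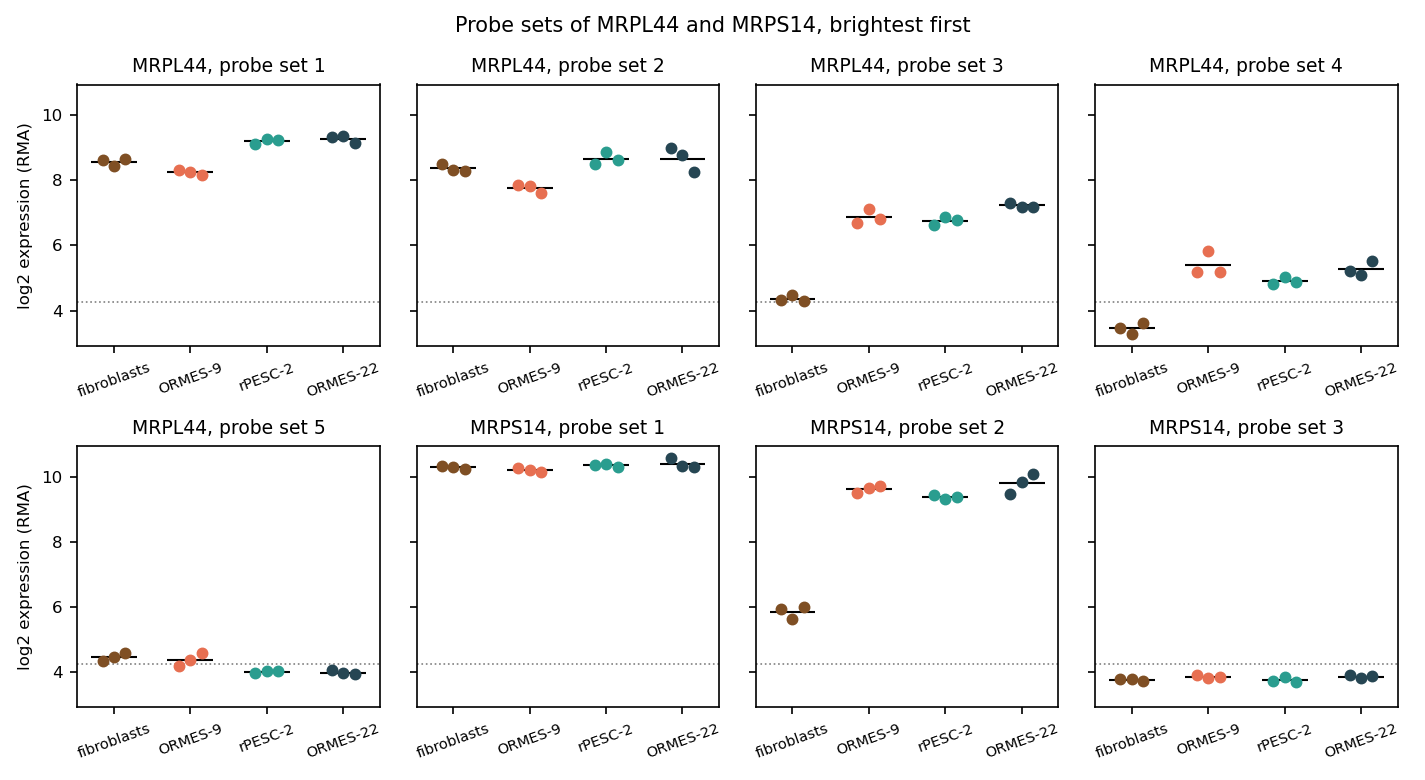
Log2 expression on each array for the 5 probe sets of MRPL44 and the 3 of MRPS14, brightest first, with group means as bars and the background level as a dotted line. The low values of MRPL44 in ORMES-9 appear in its first and second probe sets, and the low values of MRPS14 in fibroblasts only in its second.

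Between the ES lines the family was nearly flat, much like named genes at large. The median range of the 3 line means was 0.21 for members and 0.22 for all named genes. The range of the 3 line means was under 0.5 for 58 of 62 members (93.5%), against 82.6% of all named genes, and at least 1 for 2 members (3.23%), against 4.44%. The exceptions to the first count were MRPL54, MRPL44, MRPL58 and MRPS33, with ranges of 3.58, 1.02, 0.80 and 0.62. The comparisons of ORMES-9 with ORMES-22, of rPESC-2 with ORMES-22 and of ORMES-9 with rPESC-2 share arrays and are not independent.

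In ORMES-9 against ORMES-22 4 members were lower and 0 higher, which is 6.45% of the family, against 8.4% of named genes (2.98% lower, 5.42% higher) and 5.98% of probe sets. At an unadjusted p under 0.05 there were 11 members in either direction (17.7%), against 24% of named genes, and the median difference was 0.04. In rPESC-2 against ORMES-22 1 member was higher and 1 lower, 3.23% of the family against 6.65% of named genes (3.72% higher, 2.93% lower) and 4.81% of probe sets, with a median of −0.02. In ORMES-9 against rPESC-2 2 members were higher and 4 lower, 9.68% against 7.7% of named genes (4.56% higher, 3.13% lower) and 5.22% of probe sets, with a median of 0.01. The arrays of the lines compared did not overlap for 14 members in ORMES-9 against ORMES-22 (24.6% of named genes), 13 in rPESC-2 against ORMES-22 (23.2%) and 24 in ORMES-9 against rPESC-2 (30.4%), which is 22.6%, 21% and 38.7% of the family. In each of these comparisons 59 or 60 of the 62 members lay within 0.5 of 0.

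**Figure D4:**
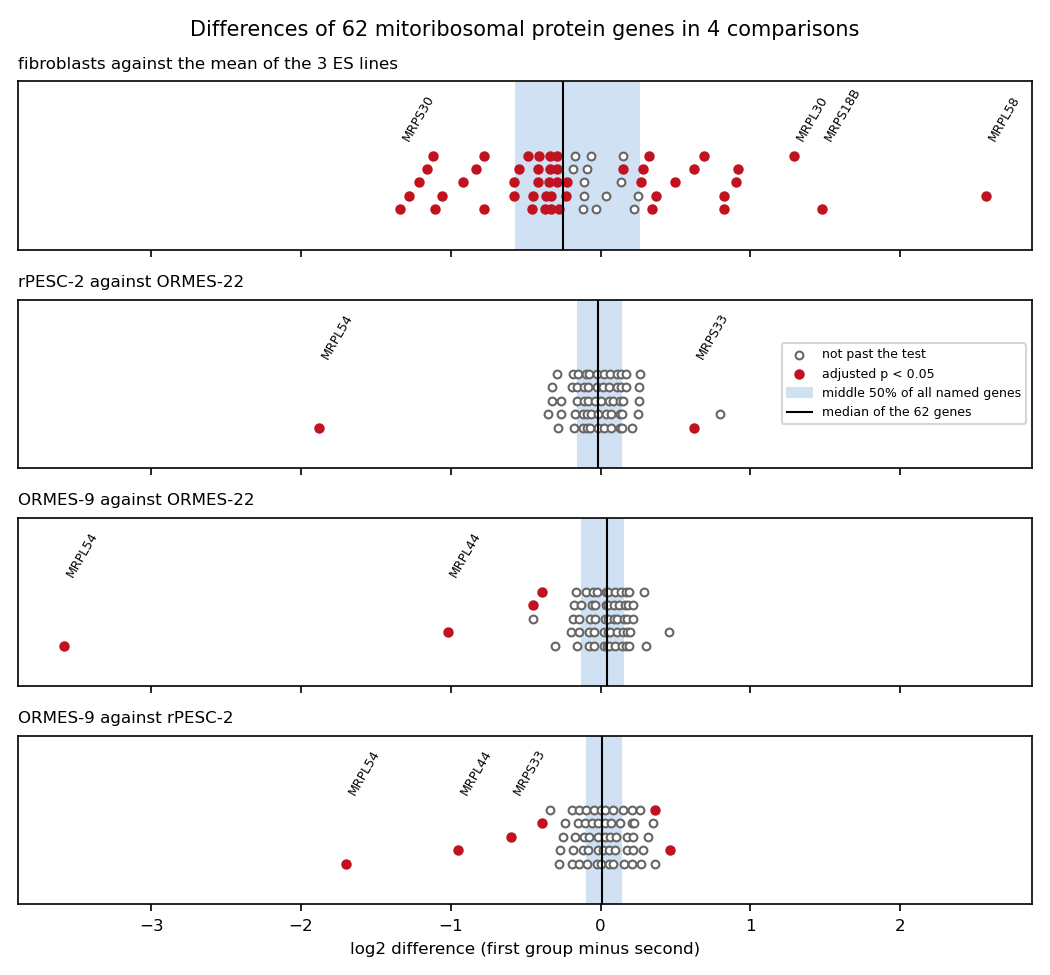
Log2 differences of the 62 mitoribosomal protein genes in each of the 4 comparisons, first group minus second, 1 point per gene (height only separates points). The shaded band holds the middle 50% of all named genes; between ES lines nearly all members lie near 0, and MRPL54 lies far to the left in all 3 comparisons.

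MRPL54, a large subunit protein gained by mitochondria, was the one member that broke from the family in every comparison of ES lines. It read 6.17, 6.13 and 6.44 in ORMES-9, 7.74, 8.0 and 8.11 in rPESC-2 and 9.54, 10.09 and 9.86 in ORMES-22. The lines did not overlap, and their order was the same whichever arrays are set against each other. ORMES-9 was 12-fold lower than ORMES-22 (difference −3.58, SE 0.14, adjusted p = 3.9e-08) and 3.25-fold lower than rPESC-2 (difference −1.70, SE 0.14, adjusted p = 2.4e-05). rPESC-2 was 3.68-fold lower than ORMES-22 (difference −1.88, SE 0.14, adjusted p = 1.6e-05). Fibroblasts, at 8.25, 8.09 and 8.13, lay between ORMES-22 and ORMES-9 and just above or within the range of rPESC-2, so the test against the mean of the ES lines gave only 0.15 (adjusted p = 0.28). MRPL54 had 1 probe set, so no second reading of the transcript was at hand. Its neighbours on chromosome 19 in the reference table were looked at after its values were seen: APBA3, RAX2 and TJP3 differed by −0.08 to 0.24 between ES lines and none passed.

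MRPL44, a large subunit protein with a ribonuclease III-like domain, was low in ORMES-9 alone among the ES lines, and it broke from the family against ORMES-22. It read 8.32, 8.26 and 8.18 in ORMES-9, 9.12, 9.26 and 9.23 in rPESC-2 and 9.32, 9.36 and 9.14 in ORMES-22. ORMES-9 did not overlap with either of the others, at a difference of −1.02 from ORMES-22 (2.03-fold, SE 0.09, adjusted p = 2.2e-05) and −0.95 from rPESC-2 (1.94-fold, SE 0.09, adjusted p = 4.5e-05). The difference between rPESC-2 and ORMES-22 was −0.07 (95% confidence interval −0.26 to 0.12, adjusted p = 0.69). Fibroblasts, at 8.61, 8.45 and 8.66, were 0.34 lower than the mean of the ES lines (adjusted p = 1.3e-03) but higher than all ORMES-9 arrays.

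Its second probe set showed the same pattern, at 7.84, 7.81 and 7.62 in ORMES-9, 8.51, 8.87 and 8.62 in rPESC-2 and 9.0, 8.76 and 8.24 in ORMES-22. The differences of ORMES-9 were −0.91 from ORMES-22 (adjusted p = 6.1e-03) and −0.91 from rPESC-2 (adjusted p = 7.3e-03). The next 2 MRPL44 probe sets in brightness did not pass in either comparison (−0.36 and 0.13 against ORMES-22, 0.10 and 0.50 against rPESC-2). With all MRPL44 probe sets averaged, the difference of ORMES-9 from rPESC-2 did not pass (−0.18, adjusted p = 0.26). In fibroblasts those 2 probe sets read 4.31 to 4.47 and 3.28 to 3.61, close to or under background, against 6.64 to 7.32 and 4.80 to 5.84 in the ES arrays, so the size of these differences is a lower bound and no fold is given. The second probe set did not differ detectably in fibroblasts (0.00, adjusted p = 0.98). The neighbours of MRPL44 on chromosome 12 were looked at after the values of MRPL44 were seen. WDFY1 was lower in ORMES-9, with differences of −0.58 against ORMES-22 (adjusted p = 0.033) and −0.61 against rPESC-2 (adjusted p = 0.030). Against ORMES-22, SERPINE2, AP1S3 and FAM124B did not pass (0.33, 0.28 and 0.03). Against rPESC-2, SERPINE2 was lower in ORMES-9 (−0.60, adjusted p = 0.028), and AP1S3 and FAM124B did not pass (−0.19 and 0.02).

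MRPS33, a mitochondrial addition to the small subunit, was raised in rPESC-2 alone. It read 11.06, 11.27 and 11.04 in rPESC-2, against 10.53, 10.58 and 10.46 in ORMES-9 and 10.55, 10.37 and 10.57 in ORMES-22. All 3 rPESC-2 arrays were above every other array of the series. The difference of rPESC-2 from ORMES-22 was 0.62 (1.54-fold, SE 0.09, adjusted p = 1.4e-03), and that of ORMES-9 from rPESC-2 was −0.60 (1.51-fold, SE 0.09, adjusted p = 1.5e-03). ORMES-9 differed from ORMES-22 by 0.03 (95% confidence interval −0.16 to 0.21).

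MRPL58, the member that stood highest in fibroblasts, also spread among the ES lines, at 5.36, 5.60 and 5.52 in ORMES-9, 5.89, 6.19 and 5.43 in rPESC-2 and 5.52, 4.57 and 5.01 in ORMES-22. The lines overlapped, and its difference of 0.80 between rPESC-2 and ORMES-22 did not pass (adjusted p = 0.070).

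The remaining members that passed between ES lines differed by less than 1.4-fold. Against ORMES-22, ORMES-9 was lower in MRPL16, the counterpart of bacterial L16 (−0.45, adjusted p = 0.012), and in MRPL10, the counterpart of bacterial L10 at the base of the stalk (−0.39, adjusted p = 0.015). MRPL16 read 9.60, 9.62 and 9.47 in ORMES-9 and 10.17, 10.07 and 9.81 in ORMES-22, and MRPL10 read 10.32, 10.36 and 10.21 in ORMES-9 and 10.73, 10.77 and 10.56 in ORMES-22. Both lost the call when only the 6 arrays compared were fitted (adjusted p = 0.11 and 0.084). Against rPESC-2, ORMES-9 was higher in MRPL38 (0.46, adjusted p = 0.023) and MRPS23 (0.36, adjusted p = 0.021) and lower in MRPL2, the counterpart of bacterial L2 (−0.39, adjusted p = 0.030). MRPL2 lost the call without any 1 of the 6 arrays compared, and MRPL38 and MRPS23 each without 4 of them.

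Markers of other cell types moved between the ES lines as well. Of 6 endoderm genes measured, 3 were higher in ORMES-9 and 4 in rPESC-2 than in ORMES-22, and the mean level over the list was 7.27 to 7.77 per array in ORMES-9, 7.83 to 8.01 in rPESC-2 and 5.95 to 6.51 in ORMES-22. Of 11 fibroblast and matrix genes, 3 were lower in ORMES-9 and 4 in rPESC-2 than in ORMES-22. Their part in the differences of MRPL54, MRPL44 and MRPS33 was not tested.

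Other genes of mitochondrial translation were counted beside the family, in lists drawn up with earlier results of these data known, and each count is to be read against the 44.9% of all named genes that were lower and the 25.5% that were higher in fibroblasts. Of 16 aminoacyl-tRNA synthetases of mitochondria, which charge transfer RNAs, 12 were lower in fibroblasts and 0 higher, with a median of −0.65. At an unadjusted p under 0.05, 12 of them differed in either direction (75%), near the 73.6% of all named genes. NARS2, RARS2, CARS2 and AARS2 led them at −1.54, −1.48, −1.34 and −1.16. Of 25 factors that assemble the mitoribosome or modify its RNA, 15 were lower and 5 higher (median −0.48), led by the ribosomal RNA methyltransferase MRM1 (−1.54) and MALSU1 (−1.16), METTL17 (−1.15) and RBFA (−1.10).

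Of 12 translation factors 5 were lower and 3 higher (median −0.08). GFM2 stood at −1.90, the elongation factor TUFM at −0.85, the initiation factor MTIF3 at −0.77 and the release factor MTRF1 at 1.38. Of 12 genes of mitochondrial DNA and RNA synthesis 6 were lower and 3 higher (median −0.23), with the helicase TWNK at −1.84, the transcription and packaging factor TFAM at −1.37, and the RNA-binding LRPPRC and PNPT1 at −0.91 and −0.86. Among 8 regulators of mitochondrial biogenesis 4 were lower and 2 higher (median −0.20), with the coactivator PPRC1 at −1.83, NRF1 at −0.73 and the ETS factor subunits GABPA at 0.97 and GABPB1 at 0.50. Of 4 mitoribosomal proteins with other names DAP3 was higher (0.24) and GADD45GIP1 and AURKAIP1 lower (−0.40 and −0.24). Subunits of oxidative phosphorylation were split, 18 of 59 lower and 22 higher with a median of 0.06, and cytosolic ribosomal proteins were 18 of 39 lower and 6 higher with a median of −0.12.

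**Figure D5:**
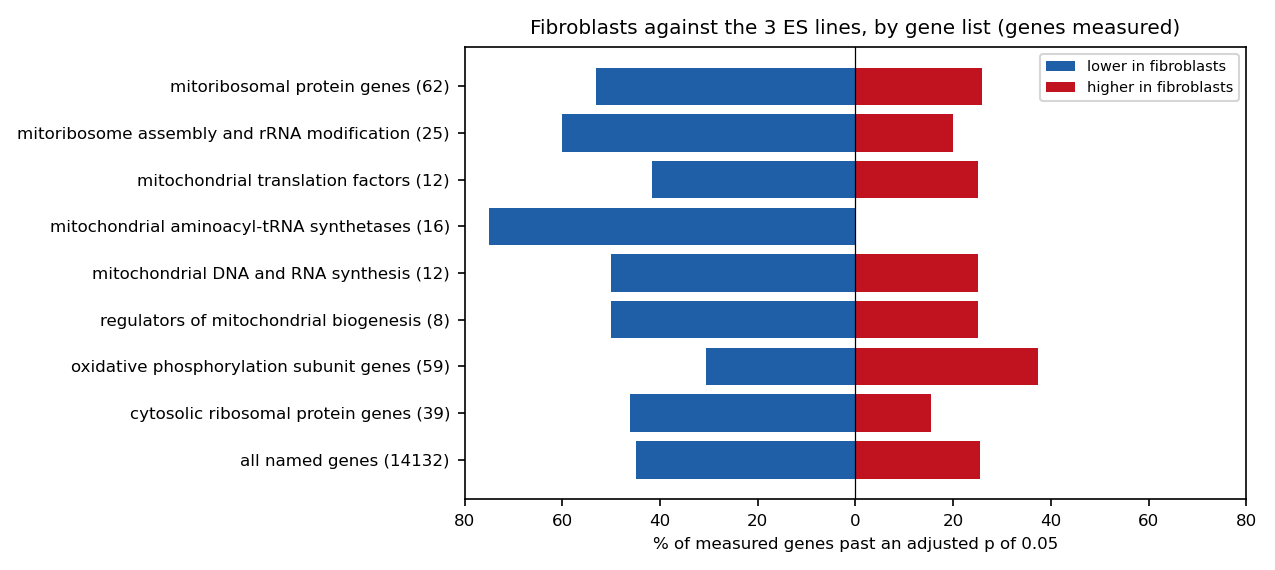
Share of the measured genes of each list that passed an adjusted p of 0.05 in fibroblasts against the mean of the 3 ES lines, lower in fibroblasts to the left and higher to the right; numbers in brackets are genes measured. The tRNA synthetases have no bar to the right, and the bars of the mitoribosomal protein genes resemble those of all named genes.

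Between ES lines 0 to 4 genes of each of the lists of synthetases, assembly factors, translation factors, DNA and RNA synthesis and regulators passed. The lists are short, and some shares were above those of all named genes. In rPESC-2 against ORMES-22 assembly factors passed at 16%, against 6.65% of named genes, and the other lists at 0%. In ORMES-9 against ORMES-22 DNA and RNA synthesis passed at 16.7% and regulators at 12.5%, against 8.4% of named genes. Synthetases (6.25%), assembly factors (4%) and translation factors (0%) were below that. In ORMES-9 against rPESC-2 all of these lists were above the 7.7% of named genes. Regulators passed at 25%, DNA and RNA synthesis at 16.7%, synthetases at 12.5%, translation factors at 8.33% and assembly factors at 8%. Oxidative phosphorylation subunits passed at 8.47% in ORMES-9 against ORMES-22, 5.08% in rPESC-2 against ORMES-22 and 13.6% in ORMES-9 against rPESC-2, and cytosolic ribosomal proteins at 7.69%, 5.13% and 5.13% in the same order, and their genes are not named. SUPV3L1, a helicase of mitochondrial RNA decay, was higher in ORMES-9, by 1.69 against ORMES-22 (adjusted p = 1.0e-03) and by 1.08 against rPESC-2 (adjusted p = 0.020). MRM1 was higher in ORMES-9 than in rPESC-2 by 1.43 (adjusted p = 9.9e-04) and lower in rPESC-2 than in ORMES-22 (−0.79, adjusted p = 0.040). RARS2 was higher in ORMES-9 by 0.58 against ORMES-22 and 0.53 against rPESC-2 (adjusted p = 6.6e-04 and 1.6e-03). GTPBP10, a GTPase of large subunit assembly, was 0.72 higher in rPESC-2 than in ORMES-22 (adjusted p = 0.010), and the ribosomal RNA methyltransferase METTL15 0.59 higher (adjusted p = 0.046). NGRN, an assembly factor, was 0.47 higher in ORMES-9 than in rPESC-2 (adjusted p = 2.3e-03) and lower in rPESC-2 than in ORMES-22 (−0.43, adjusted p = 4.9e-03). POLG, the mitochondrial DNA polymerase, was higher in ORMES-9 by 0.54 against ORMES-22 and 0.32 against rPESC-2 (adjusted p = 1.2e-03 and 0.031). The other genes of the first 5 of these lists past the test were RPUSD4 (0.54) and PPARGC1B (−0.51) in ORMES-9 against ORMES-22, and MTIF3 (0.67), MARS2 (0.51), PPARGC1A (0.55) and GABPB1 (−0.49) in ORMES-9 against rPESC-2, with adjusted p-values from 0.010 for MTIF3 to 0.043 for PPARGC1A.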

How the data were processed

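Total RNA was labelled with biotin in a one-cycle protocol and hybridised to 1 array per sample, per the labels' protocols. The authors deposited log2 values per probe set, summarised with RMA per the submitters' processing notes, of a version not given in the sources used here. The values themselves show a log2 scale. RMA gives all arrays a similar distribution, which reduces a shift common to most genes and understates differences near background. Of 52865 features, 99 controls were left out. Of the 52766 probe sets left, 24956 had 1 symbol in the platform annotation, 361 several (1 of them naming a mitoribosomal gene) and 27449 none. Chromosomes and neighbours come from a RefSeq gene table of assembly T2T-MMU8v2.0, not the array's build; all 62 members matched it by symbol. No sequences are shown.

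Group means over all 12 arrays were fitted with limma 3.58.1 in R 4.3.3 (residual degrees of freedom 8, prior 3.69), with two-sided p-values and Benjamini-Hochberg adjustment over all probe sets, except where only genes were fitted. As a check of the code, the fits were also run on simulated arrays with known changes and the same spread for all probe sets. This does not test the calls made here. No batch is given in the labels. Replicate letters did not clearly pair samples. After group means were subtracted, 18 same-letter pairs of arrays correlated at −0.31 to 0.26, with 6 above 0.1. Of 12 arrays, 3 correlated best with their own letter among arrays of other groups. A pairing is not excluded by this.

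Members named were those past an adjusted p of 0.05 and at least 2-fold, the 5 highest and 5 lowest passed per comparison, those that broke from the family, the 3 brightest and 3 dimmest, other probe sets of these, and of other lists up to 4 passed genes with the largest differences. Members and lists were chosen with earlier results of these data known, and the list of bacterial counterparts was corrected for MRPL47 and MRPL55 after values were seen. Alternatives were a fit of only the arrays compared, the replicate block, quantile normalisation, subtraction of array medians, a filter on dim probe sets, trended moderation, adjustment over genes, the mean of all probe sets of a gene, a 2-fold minimum, ORMES-22 alone as reference and each array left out.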

Additional observations from a re-analysis of the deposited data

Results flagged for a closer look

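For 6 members the difference from ORMES-22 was not the same in the 2 parthenogenetic lines, by the limma test of ORMES-9 against rPESC-2. This is 9.68% of the family, near the 7.7% of all named genes. The difference of ORMES-9 minus that of rPESC-2 was −1.70 for MRPL54 (−3.58 and −1.88, adjusted p = 2.4e-05), −0.95 for MRPL44 (−1.02 and −0.07, adjusted p = 4.5e-05) and −0.60 for MRPS33 (0.03 and 0.62, adjusted p = 1.5e-03). It was −0.39 for MRPL2 (−0.15 and 0.25, adjusted p = 0.030), 0.46 for MRPL38 (0.18 and −0.28, adjusted p = 0.023) and 0.36 for MRPS23 (0.18 and −0.18, adjusted p = 0.021). In MRPL54 both lines were lower than ORMES-22 and ORMES-9 more so. In MRPL44 the test against ORMES-22 passed in ORMES-9 alone, and in MRPS33 in rPESC-2 alone. For MRPL2, MRPL38 and MRPS23 neither line passed against ORMES-22, and the call was lost without any 1 of 6 arrays for MRPL2 and of 4 arrays for MRPL38 and for MRPS23. The call of MRPL44 was lost when its probe sets were averaged (−0.18, adjusted p = 0.26).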

How the results depend on the processing

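The 26 differences of named members kept their direction in 520 refits and their call in 497; a 2-fold minimum, not among these refits, ends the call of 12 of them. The 23 lost calls concerned MRPL16, MRPL10, MRPL2, MRPS23 and MRPL38, and, when all probe sets of a gene were averaged, MRPL38 (0.38, adjusted p = 0.061), MRPL44 in ORMES-9 against rPESC-2 (−0.18, adjusted p = 0.26) and MRPS22 in fibroblasts (−0.12, adjusted p = 0.067). The 12 were MRPL41, MRPL47, MRPS16 and MRPS31 in fibroblasts, MRPS33 in both comparisons, MRPL10, MRPL16, MRPL2, MRPL38, MRPS23, and MRPL44 against rPESC-2. With a 2-fold minimum the members called in fibroblasts were 3 higher and 7 lower; between ES lines they were 0 higher in rPESC-2 and 2 lower in ORMES-9 against ORMES-22, and 0 higher and 1 lower in ORMES-9 against rPESC-2. With averaged probe sets 2 were higher in rPESC-2 and 2 in ORMES-9 against ORMES-22, and 7 in ORMES-9 against rPESC-2. Of all 14132 named genes 1191, 1435 and 1145 passed in either direction with that setting, in the same order. Quantile normalisation gave 2 lower in rPESC-2, and a fit restricted to the compared arrays 2 lower in ORMES-9 against ORMES-22. With the replicate block 15 members were higher and 33 lower in fibroblasts, and no call of a named member was lost. Leaving out each array gave 13 to 17 higher and 31 to 34 lower in fibroblasts. It gave 0 to 2 higher (2 without ORMES-22 replicate A) and 2 to 4 lower (2 without ORMES-9 replicate C) in ORMES-9 against ORMES-22. It gave 1 to 3 higher and 1 to 2 lower in rPESC-2 against ORMES-22, both highest without ORMES-22 replicate A, and 2 higher without rPESC-2 replicate C. It gave 0 to 3 higher and 3 to 4 lower in ORMES-9 against rPESC-2, with 0 higher without replicate A of either line and 1 higher without replicate B of either or ORMES-9 replicate C. Without ORMES-22 replicate A the passed probe sets, of 52766, rose from 2536 to 7599 in rPESC-2 against ORMES-22. They rose from 3158 to 5772 in ORMES-9 against ORMES-22 and from 2753 to 4295 in ORMES-9 against rPESC-2. The higher member counts without that array are to be read against this rise. Signal near background limits MRPS6, MRPL58 in ES lines and the dimmer MRPL44 probe sets.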

Other observations

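Beside MRPS14 and MRPS22, several other members had a second probe set that passed where the chosen one did not or went the other way, and 3 examples were picked after their values were seen. The second probe set of MRPL48 was higher in both parthenogenetic lines than in ORMES-22, by 0.86 in ORMES-9 (adjusted p = 2.3e-04) and 0.60 in rPESC-2 (adjusted p = 4.3e-03). The second probe set of MRPS18A was 0.79 higher in ORMES-9 than in rPESC-2 (adjusted p = 1.1e-04) and lower in rPESC-2 than in ORMES-22 (−0.55, adjusted p = 2.2e-03). The second probe set of MRPL4 was 1.58 higher in fibroblasts than in the mean of the ES lines (adjusted p = 2.9e-06), against −0.23 for the chosen one. Among genes next to members in the reference table, STX3 and BRAF were picked because they passed. STX3, beside MRPL16, was 1.12 higher in ORMES-9 than in ORMES-22 (adjusted p = 1.1e-03), opposite to MRPL16 (−0.45). BRAF, beside MRPS33, was 0.80 higher in rPESC-2 than in ORMES-22 (adjusted p = 0.010). In the same comparisons TCN1 and CBLIF near MRPL16, and NDUFB2 and AGK near MRPS33, did not pass. Over all named genes 8.4% and 6.65% passed in these comparisons.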
